A study of Mus musculus with 8 samples.

Results

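*Ly6a*, *Ly6c1*, *Ly6c2* and *Ly6e* encode surface antigens of the mouse Ly6 family, and they are described here across all 4 conditions of an RNA-seq series on cultured CD8 T cells. The genes were picked by their symbols, with earlier results of these data known, and all 4 of 4 were found among the 24303 genes of the deposited table. Naive CD8 T cells from the spleens of P14 mice, whose T cells carry one transgenic receptor for the GP33 peptide, were first activated for 2 days on plates coated with anti-CD3 and anti-CD28. Acute-2d cells then grew without GP33 until day 19. Acute-7d cells were stimulated repeatedly with GP33 until day 7 and were kept peptide-free until day 19. T_Dysf cells were stimulated repeatedly with GP33 until day 19 and received TGFβ1 from day 7. No condition had GP33 until day 19 without TGFβ1, so continued peptide and TGFβ1 cannot be told apart. By the study, T_Dysf cells were also taken under stimulation and the acutely stimulated cells at rest. Effector cells were collected on day 7, and the labels do not say whether they were given GP33. Comparisons with Effector therefore also differ in the day of collection. In a flow cytometry figure, the study names day 7 cells Effector 7d-stim. The study's methods give the P14 mice a C57BL/6 background, either sex and an age of at least 8 weeks. By the same methods, the cells were sorted before RNA isolation, on day 19 as viable CD8+ T cells.

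Each of the 4 conditions had 2 libraries of polyA RNA, described as biological replicates, and whether these came from separate animals or separate cultures is not stated. The p-values therefore measure the spread between these 8 libraries. A single transgenic receptor and a culture system also limit what the cells can stand for. Library names carrying the prefix RESUB fall on both Effector libraries and on Acute-7d replicate 1, so for comparisons with Effector the prefix and the condition cannot be fully told apart. Reads were inferred from the normalized values, by taking the most common low value of each library as 1 read. On that basis, depth ran from 19382147 to 24856195 reads on genes per library. Values are normalized counts, and 3 reads correspond to between 2.59 and 3.35 normalized counts, a floor that covers counting error only.

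Ly6 proteins are small, cysteine-rich proteins that most often sit on the outer face of the cell membrane through a glycosylphosphatidylinositol (GPI) anchor. *Ly6a* encodes Sca-1, a marker of blood stem cells that activated and memory T cells also carry, and *Ly6e* encodes a family member first described on thymocytes. *Ly6c1* and *Ly6c2* encode the forms of Ly6C, an antigen of monocytes and of many effector and memory CD8 T cells, and several genes of the family respond to interferon.

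The 4 genes lie within 156.919 kb of chromosome 15 in the GRCm38 (mm10) build. *Ly6e* runs from 74955051 to 74959905 on the plus strand. On the minus strand lie *Ly6a* (74994877 to 74998031), *Ly6c1* (75044018 to 75048830) and *Ly6c2* (75108158 to 75111970). A further family member, *Ly6a2*, which the annotation lists as a pseudogene, lies 19.41 kb from *Ly6c2*. *Ly6c1* and *Ly6c2* are close copies: over 822 aligned bases of their transcripts, 802 were identical (97.57%). Of all stretches of 50 bases in the annotated transcripts, 14.38% of those of *Ly6c2*, 32.77% of those of *Ly6c1* and 18.97% of those of *Ly6a* also occur in another gene, while *Ly6e* shares 0. The *Ly6c2* stretches include those of a 2680-base transcript with a retained intron, beside a longest coding transcript of 822 bases. The share within coding transcripts alone was not computed. Reads from shared stretches could be divided between the copies, so *Ly6c1* and *Ly6c2* were also counted as a sum.

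The RefSeq promoter table (GRCm38.p6) held 2 of the 4 genes, *Ly6c2* and *Ly6c1*, and also *Ly6a2*. Their 250 bases before the start are shown because the copies resemble each other there too, while their levels differ widely. *Ly6c2* and *Ly6c1* had 2 entries each, and the start furthest upstream was used. Capitals mark a run of 20 bases that all 3 share and that occurs in 5 of 32851 entries of the table, all of them entries of these 3 genes. The windows are chr15:75111972-75112221 for *Ly6c2*, chr15:75048838-75049087 for *Ly6c1* and chr15:75135129-75135378 for *Ly6a2*, all on the minus strand and printed 5′ to 3′.
Ly6c2: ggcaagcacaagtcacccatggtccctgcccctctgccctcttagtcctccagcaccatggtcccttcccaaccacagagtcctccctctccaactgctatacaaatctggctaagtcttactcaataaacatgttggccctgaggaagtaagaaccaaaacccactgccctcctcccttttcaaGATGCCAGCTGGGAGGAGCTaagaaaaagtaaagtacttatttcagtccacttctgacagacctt
Ly6c1: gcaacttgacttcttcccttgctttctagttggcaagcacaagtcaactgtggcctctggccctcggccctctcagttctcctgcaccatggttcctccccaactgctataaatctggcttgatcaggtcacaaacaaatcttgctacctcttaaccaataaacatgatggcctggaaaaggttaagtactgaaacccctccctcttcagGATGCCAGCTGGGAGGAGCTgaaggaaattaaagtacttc
Ly6a2: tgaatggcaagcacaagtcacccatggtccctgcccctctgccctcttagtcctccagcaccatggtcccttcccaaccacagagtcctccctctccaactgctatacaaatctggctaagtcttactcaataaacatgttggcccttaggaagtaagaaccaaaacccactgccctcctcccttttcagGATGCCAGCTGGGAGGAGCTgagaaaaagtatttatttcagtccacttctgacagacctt

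The shared run begins 65 bases before the start of *Ly6c2*, 40 bases before that of *Ly6c1* and 60 bases before that of *Ly6a2*. The *Ly6c2* promoter matched that of *Ly6a2* at 242 of 245 aligned bases (98.78%) and that of *Ly6c1* at 170 of 210 (80.95%). Motifs were searched on both strands. TATAAA, the TATA box, occurred 1 time in the *Ly6c1* window and 0 times in the windows of *Ly6c2* and *Ly6a2* (12.4% of all promoters hold it). TGTGGT, a RUNX element, occurred 1 time each in *Ly6c2* and *Ly6a2* and 0 times in *Ly6c1* (14% of all promoters). The interferon gamma activated site TTCNNNGAA (7.02% of promoters), the interferon regulatory factor element AANNGAAA (21.3%), the SMAD element CAGACA (17.1%) and the AP-1 element TGANTCA (6.75%) had 0 matches in all 3 windows. Most promoters lack each of these motifs, so their absence here says little, and control by these factors was not tested.

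*Ly6c2* was the one gene of the 4 that was called in any comparison, and it was far lower in T_Dysf than in the other conditions. It was measured at 28729 and 27423 normalized counts in the Effector libraries, at 24986 and 25805 in Acute-2d and at 35684 and 32949 in Acute-7d. The T_Dysf libraries held 3592 and 4028. Both T_Dysf libraries lay below all 6 others, and the remaining conditions did not overlap each other, with Acute-7d highest, then Effector, then Acute-2d. The condition means were 34317 ± 1934 for Acute-7d, 28076 ± 924 for Effector, 25395 ± 579 for Acute-2d and 3810 ± 308 for T_Dysf (SD, n = 2 each).

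**Figure D1:**
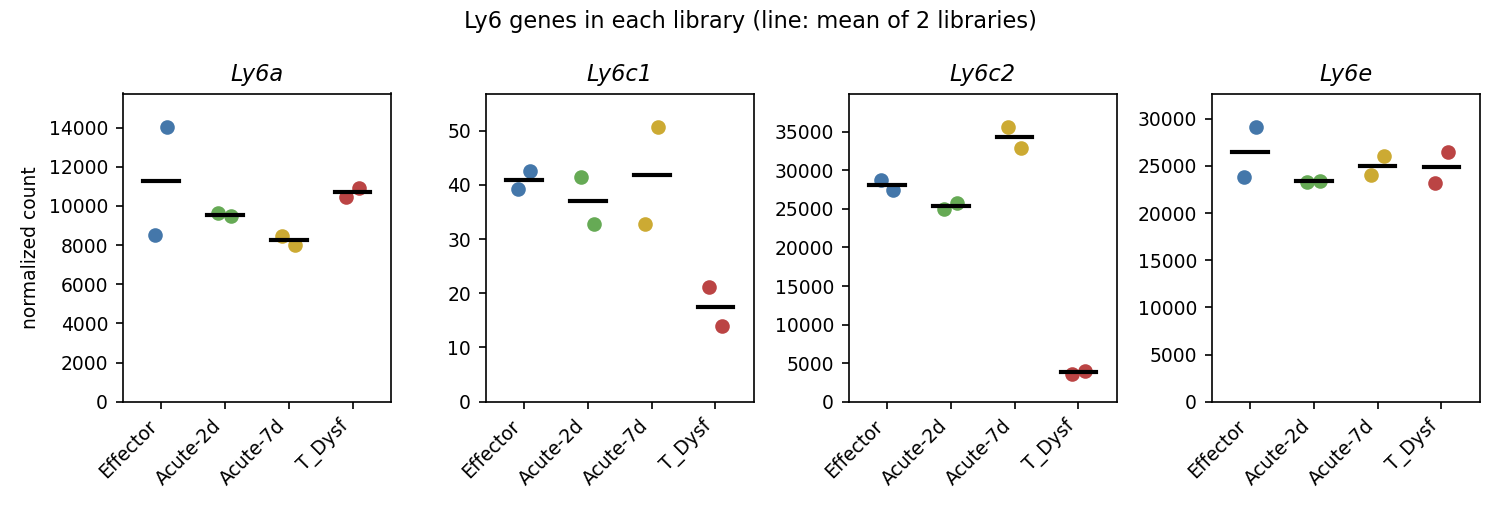
Normalized count (vertical axis, from 0) of each gene in each library, with 2 points per condition and a line at their mean. *Ly6c2* in T_Dysf sits at 3592 and 4028 while its other 6 libraries lie between 24986 and 35684, and *Ly6e* stays between 23167 and 29184 in all 8.

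Against Acute-7d, the comparison of continued peptide and TGFβ1 with peptide withdrawn on day 7, *Ly6c2* fell by 3.17 on the log2 scale (SE 0.097, 95% interval −3.42 to −2.92), a 9.01-fold lower level. The adjusted p was 0.00058, from the moderated test of limma and the Benjamini-Hochberg method over all 24303 genes, as for every adjusted p here. A gene was called at an adjusted p under 0.05 and a change of at least 2-fold, with fold changes taken on log2(normalized count + 1). Of the 4 genes, 1 was called lower and 0 higher, where 3.03% of all genes were called lower and 2.54% higher. With so few genes, 1 call carries no statement about the family, and the result is that of *Ly6c2* itself. It was the 132nd lowest of the 736 genes called lower. At an unadjusted p under 0.05, 2 of the 4 passed, *Ly6c1* and *Ly6c2*, as did 26.1% of all genes. In bulk RNA, fewer cells expressing the gene and less RNA per cell cannot be told apart. No exact permutation test of 2 libraries against 2 can pass 0.05, since its smallest two-sided p is 0.33, so the calls rest on the spread that limma pools over genes.

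Against Acute-2d, cells that saw no peptide after activation, *Ly6c2* fell by 2.74 on the log2 scale (95% interval −2.99 to −2.49), 6.67-fold, with an adjusted p of 0.00067 by limma. That was 1 of 4 genes called lower and 0 called higher, beside 4.21% and 3.14% of all genes. Against Effector, *Ly6c2* fell by 2.88 (95% interval −3.13 to −2.63), 7.38-fold, with an adjusted p of 0.000629 by limma. Again 1 of 4 genes was called lower and 0 higher, beside 4.75% and 4.47% of all genes. In each of these 2 comparisons *Ly6c1* and *Ly6c2* were the 2 of the 4 with an unadjusted p under 0.05, a level passed by 27.7% of all genes against Acute-2d and 31.7% against Effector. The 3 comparisons share the T_Dysf libraries and are not independent of each other. *Ly6c2* was called in all 3 under each of 20 alternative settings, including the one with a term for the RESUB prefix and those that left out 1 library.

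**Figure D2:**
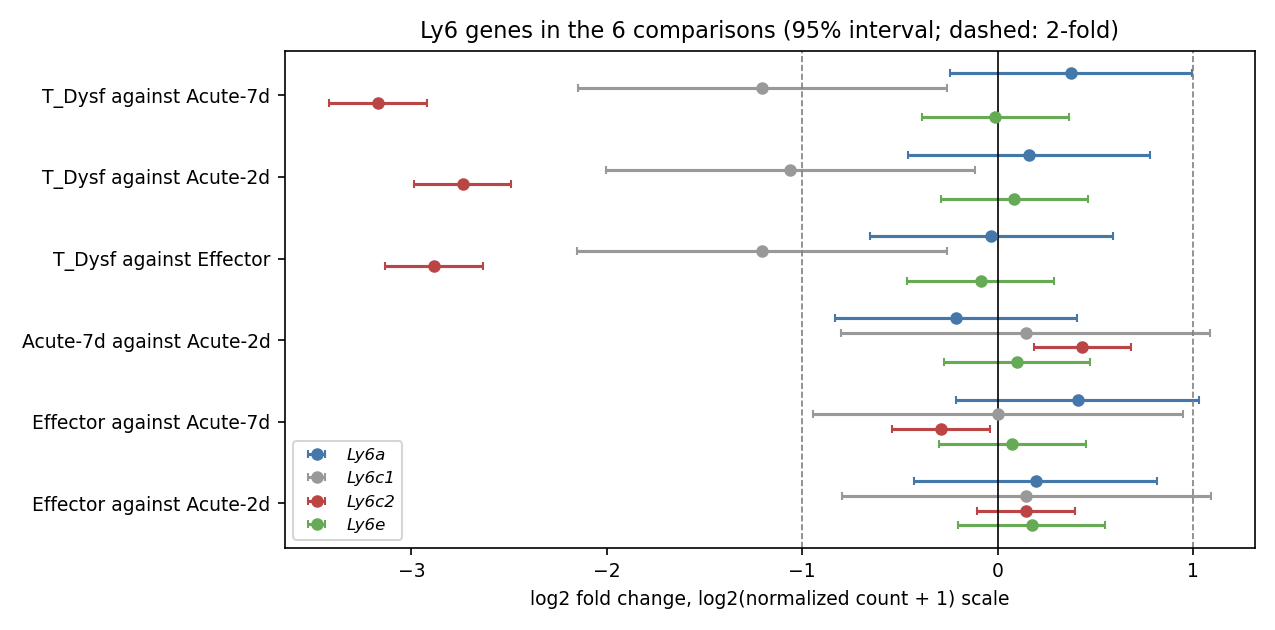
Log2 fold change (horizontal axis, on the log2(normalized count + 1) scale) of the 4 genes in the 6 comparisons, with bars for the 95% interval and dashed lines at 2-fold. *Ly6c2* lies between −3.17 and −2.74 in the comparisons with T_Dysf, and the intervals of *Ly6a* and *Ly6e* include 0 in all 6.

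Among the other conditions, *Ly6c2* differed by less than 2-fold. It was 0.43 higher on the log2 scale in Acute-7d than in Acute-2d (95% interval 0.18 to 0.68, unadjusted p of 0.00682 and adjusted p of 0.415 by limma). This comparison asks what peptide from day 2 to day 7 left behind by day 19. In it, 0 of the 4 genes were called by limma, with 1 (*Ly6c2*) at an unadjusted p under 0.05 (7.31% of all genes). Of all genes, 0.0782% were called higher and 0.0905% lower there, 41 in all, a number that was 376 without Acute-2d replicate 2, 137 without Acute-2d replicate 1, 168 and 125 without Acute-7d replicate 1 or 2, 78 and 79 without T_Dysf replicate 1 or 2, 62 without Effector replicate 1 and 1 with a filter at 50. In Effector against Acute-7d the log2 difference of *Ly6c2* was −0.29 (95% interval −0.54 to −0.039, adjusted p of 0.12 by limma). Here limma called 0 of the 4 genes, again with 1 (*Ly6c2*) at an unadjusted p under 0.05 (30.4% of all genes), beside 4.18% of all genes called higher and 3.88% lower. In Effector against Acute-2d the log2 difference of *Ly6c2* was 0.14 (adjusted p of 0.391 by limma), and −0.0030 when libraries were scaled to equal 75th percentiles. For that comparison limma called 0 of the 4 genes, with 0 at an unadjusted p under 0.05 (31.2% of all genes), beside 4.31% of all genes called higher and 4.48% lower.

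*Ly6c1*, the close copy, was measured at a far lower level. It held 39.2 and 42.6 normalized counts in Effector, 41.4 and 32.8 in Acute-2d, 32.8 and 50.8 in Acute-7d and 21.1 and 13.9 in T_Dysf. The T_Dysf libraries were the lowest for this gene as well, above the floor, while the other 3 conditions overlapped. The means were 17.5 ± 5.10 in T_Dysf, 37.1 ± 6.08 in Acute-2d, 40.9 ± 2.43 in Effector and 41.8 ± 12.7 in Acute-7d (SD, n = 2 each). The log2 differences of T_Dysf were −1.20 from Acute-7d, −1.06 from Acute-2d and −1.21 from Effector (SE 0.36), with adjusted p of 0.12, 0.143 and 0.0947 by limma, so *Ly6c1* was not called.

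Summing both copies gave the result of *Ly6c2*. The log2 difference of the sum in T_Dysf was −3.17 against Acute-7d, −2.73 against Acute-2d and −2.88 against Effector, with adjusted p of 0.00058, 0.000666 and 0.000612 by limma. Its log2 difference was 0.43 in Acute-7d against Acute-2d (adjusted p of 0.413), −0.29 in Effector against Acute-7d (0.119) and 0.14 in Effector against Acute-2d (0.388). *Ly6c1* adds so few counts that the sum had to follow *Ly6c2*, and whether reads counted for *Ly6c1* came from *Ly6c2* was not tested.

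*Ly6a*, encoding Sca-1, stayed within 1.75-fold over the 8 libraries. Its normalized counts were 8503 and 14057 in Effector, 9639 and 9475 in Acute-2d, 8459 and 8021 in Acute-7d and 10447 and 10939 in T_Dysf. Both T_Dysf libraries lay above both libraries of Acute-7d and of Acute-2d, and the widely spaced Effector libraries spanned the values of T_Dysf and Acute-2d but stayed just above those of Acute-7d. By mean the order was Effector (11280 ± 3927), T_Dysf (10693 ± 347), Acute-2d (9557 ± 116) and Acute-7d (8240 ± 310; SD, n = 2 each), and no neighbours in it passed the test. T_Dysf differed from Acute-7d by 0.38 on the log2 scale (95% interval −0.24 to 0.996, adjusted p of 0.393 by limma). Its difference from Acute-2d was 0.16 (adjusted p of 0.74) and that from Effector −0.03 (adjusted p of 1). Effector exceeded Acute-7d by 0.41 (adjusted p of 0.347), a value that rested on 1 library. Without Effector replicate 1 it was 0.77, and without Effector replicate 2 it was 0.046.

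*Ly6e* varied least, within 1.26-fold. It was measured at 23787 and 29184 normalized counts in Effector, 23336 and 23378 in Acute-2d, 24028 and 26045 in Acute-7d and 23167 and 26523 in T_Dysf. The ranges of T_Dysf, Acute-7d and Effector overlapped one another, and the Acute-2d values lay inside that of T_Dysf. Mean levels were 26486 ± 3816 in Effector, 25037 ± 1426 in Acute-7d, 24845 ± 2373 in T_Dysf and 23357 ± 29.8 in Acute-2d (SD, n = 2 each). The log2 difference of T_Dysf from Acute-7d was −0.013 (SE 0.15, 95% interval −0.39 to 0.36, adjusted p of 1 by limma), so a 2-fold change lies outside the interval. From Acute-2d the difference was 0.086 and from Effector −0.088 (adjusted p of 0.784 and 0.762 by limma). These small values changed sign under some alternative settings.

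Between genes, levels were compared per kb of the longest coding transcript, 955 bases for *Ly6a*, 844 for *Ly6c1*, 822 for *Ly6c2* and 2281 for *Ly6e*. On that scale *Ly6c2* was the most abundant of the 4 in Acute-7d (41748 normalized counts per kb), Effector (34155) and Acute-2d (30895), and it lay below *Ly6a* and *Ly6e* in T_Dysf (4635). *Ly6a* held 8628 per kb in Acute-7d and 11197 in T_Dysf, and *Ly6e* held 10976 and 10892. Expressed as a mean share of the 4 genes per kb, *Ly6c2* made up 68.0% in Acute-7d, 60.4% in Acute-2d, 59.5% in Effector and 17.3% in T_Dysf. Of counts not divided by length, it made up 52.3% and 49.1% in Acute-7d and 9.6% and 9.7% in T_Dysf. Effector libraries gave 47.1% and 38.8%, and those of Acute-2d 43.1% and 44.0%. The summed level of the 4 was 25491 and 27998 per kb in T_Dysf and between 50769 and 62842 in the other libraries. Without division by length, the sum was 37227.5 and 41502.9 in T_Dysf and between 58001.4 and 70705.4 elsewhere. The choice of length matters for the order of genes: with the longest annotated *Ly6c2* transcript of any kind, 2680 bases with a retained intron, its levels were 12805 per kb in Acute-7d, 10476 in Effector, 9476 in Acute-2d and 1422 in T_Dysf. By mean, *Ly6c2* then lay above *Ly6a* and *Ly6e* in Acute-7d alone, since these held 11811 and 11611 in Effector and 10007 and 10240 in Acute-2d. In Effector replicate 1 it lay above both, at 10720 beside 8903.5 and 10428. The change of *Ly6c2* between conditions is the same on either length. Its share and the summed level of the 4 depend on the length chosen.

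**Figure D3:**
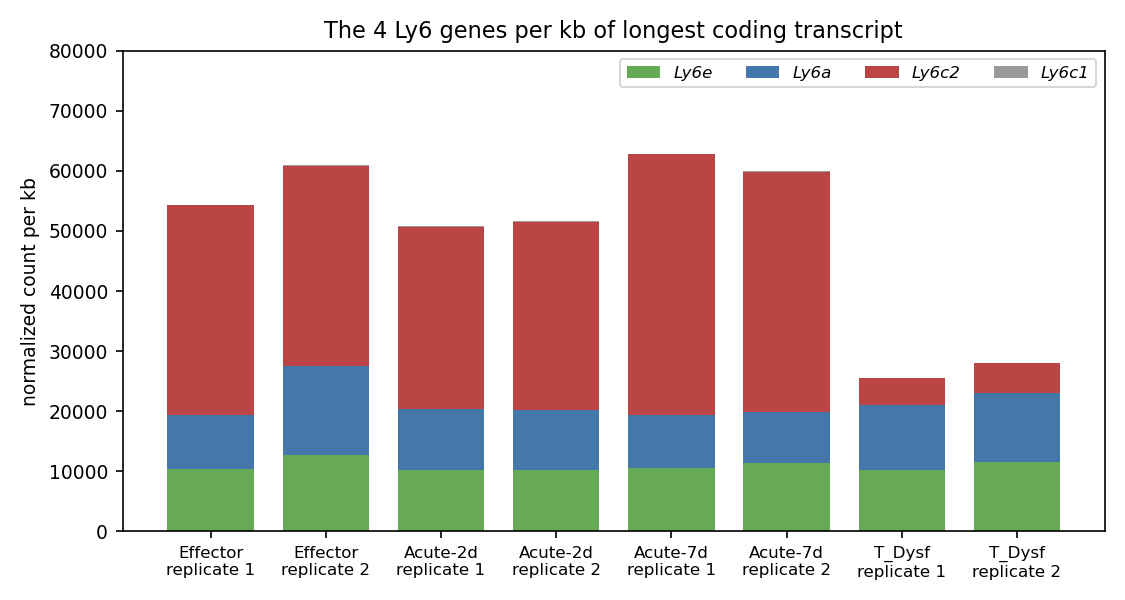
Normalized count per kb of the longest coding transcript (vertical axis), stacked for the 4 genes in each of the 8 libraries. The *Ly6c2* block shrinks in both T_Dysf libraries while those of *Ly6a* and *Ly6e* keep a similar height, and *Ly6c1*, at most 60.1 per kb in any library, is too thin to see.

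The genes whose pattern over the 8 libraries was most like *Ly6c2*, by Pearson's r of log2 values among 10310 genes, were *Rab23* (r = 0.994), *Exd2* (0.993), *Sidt1* (0.992), *Nabp1* (0.992) and *Tsnax* (0.992). These correlations describe 8 libraries that fall into T_Dysf and the rest, and they rest on that split. *Sidt1*, a transmembrane protein related to RNA transporters, was measured at 122 and 158 normalized counts in T_Dysf and between 773 and 1333 in the other libraries, a log2 difference of −3.18 from Acute-7d. *Exd2*, an exonuclease, held 129 in both T_Dysf libraries and between 611 and 763 elsewhere, a difference of −2.51. The same difference was −2.13 for *Rab23*, a small GTPase, −1.57 for *Tsnax*, the partner of translin, and −1.13 for *Nabp1*, a binder of single-stranded DNA. Since they were picked for following *Ly6c2* over these libraries, being lower in T_Dysf was fixed by the choice, and no test is given.

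**Figure D4:**
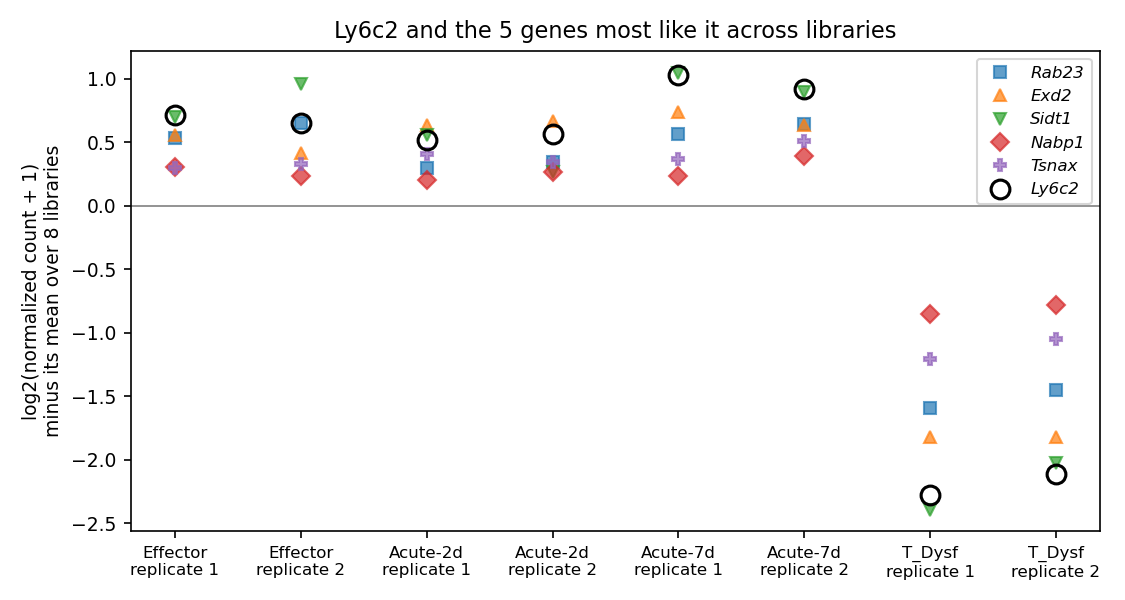
Log2(normalized count + 1) minus the gene's mean over the 8 libraries (vertical axis) for *Ly6c2* (open circles) and the 5 genes most like it, by library. All 6 genes lie above 0 in the 6 Effector, Acute-2d and Acute-7d libraries and below 0 in both T_Dysf libraries.

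For the other members the closest genes were less alike. *Ly6a* was followed by *Hdlbp* (r = 0.955), *Rraga* (0.950), *Mtmr4* (0.946), *Aaas* (0.922) and *Tonsl* (0.920). *Ly6e* was followed by *Wasf2* (0.923), *Zfp41* (0.922), *Atl3* (0.917), *Ptch1* (0.901) and *Ttc32* (0.882). For *Ly6c1* they were *Ppp4r1* (0.956), *Izumo1r* (0.956), *Txnrd2* (0.952), *Gtf2a2* (0.952) and *Lhpp* (0.951), and its low counts make this order uncertain.

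Of 37 further Ly6 family genes 14 were in the table, 4 of them with a mean of at least 50. Their median log2 difference in T_Dysf was −0.32 against Acute-2d and 0.18 against Effector. In T_Dysf against Acute-7d limma called 1 of the 14 higher and 0 lower, beside 2.54% and 3.03% of all genes, with a median log2 difference of 0.16 beside 0 for all genes. With a filter at 50, without pseudogene entries or without either Effector library 1 was called lower. *Ly6g5b*, a family gene on chromosome 17 and the most abundant of the list, was measured at 2120 and 1897 normalized counts in T_Dysf and between 79.3 and 282 in the other 6 libraries. It rose by 3.15 against Acute-7d, 2.97 against Acute-2d and 4.08 against Effector on the log2 scale (adjusted p of 0.0172, 0.0155 and 0.00791 by limma). The call against Acute-7d was lost without either Acute-7d library, without either T_Dysf library and with the RESUB term, at estimates between 2.96 and 3.34. The call against Acute-2d was lost without either Acute-2d or T_Dysf library (2.83 to 3.12), and that against Effector without T_Dysf replicate 1, with the RESUB term and in a fit of the 2 groups alone (3.51 to 4.64). The direction of *Ly6g5b* was thus opposite to that of *Ly6c2*.

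*Ly6a2*, the neighbour whose promoter nearly matches that of *Ly6c2*, held 79.4 and 45.4 normalized counts in T_Dysf. It held 974 and 257 in Effector, 216 and 233 in Acute-2d and 668 and 509 in Acute-7d. Its T_Dysf libraries were the lowest, as for *Ly6c2*, but the spread was wide. Though annotated as a pseudogene, *Ly6a2* was kept in the fit without pseudogene entries. The log2 difference was −3.26 from Acute-7d (adjusted p of 0.0533), −1.88 from Acute-2d (0.158) and −3.04 from Effector (0.0467, called) by limma. The call against Effector was lost in 11 of 20 alternative settings, at estimates between −4.00 and −2.08, among them the RESUB term and leaving out either library of Acute-2d, Acute-7d or T_Dysf. Against Effector, 2 of the 14 family genes were called higher (*Ly6g5b* and *Lypd6b*) and 1 lower. The call of *Lypd6b* was lost in 10 of 20 settings (0.90 to 1.47), among them leaving out Effector replicate 2 or any library of the other conditions. The counts were 0 and 0 with the RESUB term, in a fit of the 2 groups alone or without T_Dysf replicate 1. Against Acute-2d the counts were 1 higher (*Ly6g5b*) and 0 lower, with up to 2 lower over the alternatives. All genes were called higher and lower at 4.47% and 4.75% against Effector and at 3.14% and 4.21% against Acute-2d.

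Of 29 genes that build and attach the GPI anchor, all in the table, 2 were called higher and 1 lower in T_Dysf against Acute-7d, where 2.54% and 3.03% of all genes were called, with a median log2 difference of 0.19 beside 0 for all genes. *Pigk* and *Gpaa1*, subunits of the transamidase that attaches the anchor, rose by 1.44 and 1.05 (adjusted p of 0.0263 and 0.00819 by limma). *Mppe1*, which trims the anchor after attachment, fell by 1.30 (adjusted p of 0.00708 by limma). Without T_Dysf replicate 1 none of these 3 calls remained, 0 of 29 in each direction, although their estimates over all alternatives kept their signs (1.20 to 1.68, 0.95 to 1.13 and −1.40 to −1.28). Leaving out T_Dysf replicate 2 or any 1 library of Acute-2d or Acute-7d left 1 call higher, as did the RESUB term. *Pigs*, another transamidase subunit and the most abundant of the list, was 0.55 higher, under the 2-fold limit. Against Acute-2d (3.14% and 4.21% of all genes, list median 0.24) the counts were 2 higher and 1 lower, with 1 higher without Acute-2d replicate 1 or T_Dysf replicate 1. Over all genes, the RESUB term took the calls against Effector from 2241 to 386. On the list (4.47% and 4.75% of all genes, list median 0.12) the counts against Effector were 3 and 1. They became 0 and 0 with the RESUB term or a fit of the 2 groups alone, 1 and 0 without Effector replicate 2, either Acute-2d library, Acute-7d replicate 2 or T_Dysf replicate 1, 1 and 1 without Acute-7d replicate 1, and 2 and 0 without Effector replicate 1 or T_Dysf replicate 2.

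Other GPI-anchored proteins of T cells went both ways. Of 16 in the table, 4 were called higher and 3 lower in T_Dysf against Acute-7d, beside 2.54% and 3.03% of all genes (median log2 difference 0.66, all genes 0). *Thy1*, the pan-T-cell antigen and the most abundant of the list, was measured at 66131 and 71780 normalized counts in T_Dysf and between 21361 and 30304 elsewhere, a rise of 1.23 (adjusted p of 0.0162 by limma). *Nt5e*, encoding the ecto-enzyme CD73, rose by 1.29, *Prnp*, the prion protein, by 2.01 and *Rtn4rl1*, a Nogo receptor relative, by 2.69 (adjusted p of 0.0117, 0.0181 and 0.0103 by limma). *Izumo1r*, encoding folate receptor 4, fell by 4.49, *Art2b*, an ADP-ribosyltransferase, fell by 2.84, and *Cd55*, a regulator of complement, fell by 1.49 (adjusted p of 0.0253, 0.0119 and 0.0285 by limma). Without T_Dysf replicate 1 the counts were 0 higher and 1 lower, and they were 2 and 1 without T_Dysf replicate 2 and 1 and 1 without either Acute-7d library or with the RESUB term. Without either Acute-2d library, *Izumo1r* was lost and 2 were called lower. Over the alternatives the estimates ran from 1.13 to 1.29 for *Thy1*, 1.19 to 1.35 for *Nt5e*, 2.55 to 2.82 for *Rtn4rl1* and −1.63 to −1.36 for *Cd55*. They ran more widely for *Izumo1r* (−4.89 to −3.25), *Prnp* (1.67 to 2.35) and *Art2b* (−3.18 to −2.51). Over all genes, calls in this comparison also went from 1353 to 422 without T_Dysf replicate 1. Against Acute-2d (3.14% and 4.21% of all genes, list median 0.096) 4 were called higher and 2 lower, which became 1 and 1 without T_Dysf replicate 1, 4 and 1 without T_Dysf replicate 2 or either Acute-7d library and 3 and 0 without either Acute-2d library. Against Effector (4.47% and 4.75%, list median −0.23) the counts were 4 and 4, which became 2 and 0 without T_Dysf replicate 1 or with the RESUB term, 4 and 1 without T_Dysf replicate 2 and 4 and 2 without Effector replicate 1 or either Acute-7d library.

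Of 52 interferon-stimulated genes, all in the table, 12 had a log2 difference above 0 in T_Dysf against Acute-7d, 12 against Acute-2d and 3 against Effector. Their median log2 difference was −0.72 against Acute-7d, −0.72 against Acute-2d and −1.03 against Effector, beside 0 for all genes, and limma called 1 higher and 6 lower, 1 and 12, and 1 and 22, where 3.03%, 4.21% and 4.75% of all genes were called lower. Most of the 52 did not pass the test. *Ly6a* and *Ly6e*, also described as interferon-inducible, did not pass the test in any of these comparisons. *Slfn5* fell by 2.76 against Acute-7d, the antiviral *Oasl1* fell by 2.47, *Cmpk2* fell by 2.37 and *Gbp4*, a guanylate-binding protein and the most abundant of the list, fell by 1.36 (adjusted p of 0.0147, 0.0153, 0.0147 and 0.0275 by limma). *Isg20*, an exonuclease, rose by 2.63 (adjusted p of 0.0054), a call kept under all 20 alternatives. The 6 lower calls against Acute-7d numbered 0 without T_Dysf replicate 1 or Acute-7d replicate 1, and 2 without T_Dysf replicate 2 or Acute-7d replicate 2. With the RESUB term they numbered 0, and with a filter at 50 they numbered 13. The RESUB term left 6 lower calls of the list against Acute-2d. In T_Dysf against Effector it also took calls over all genes from 2241 to 386. Estimates ran from −3.14 to −2.38 for *Slfn5*, −2.47 to −2.29 for *Cmpk2*, −1.47 to −1.28 for *Gbp4* and −2.73 to −1.33 for *Oasl1*. Against Acute-2d the 12 lower calls became 1 and 2 without T_Dysf replicate 1 or 2, 2 and 6 without Acute-2d replicate 1 or 2 and 6 without either Acute-7d library, 5 in a fit of the 2 groups alone, and 20 with a filter at 50. Against Effector the 22 lower calls became 4 and 8 without T_Dysf replicate 1 or 2, 11 without Effector replicate 2, 1 with the RESUB term, 3 in a fit of the 2 groups alone and 27 with a filter at 50.

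Of 14 interferon receptors and signal transducers, 2 were called lower and 0 higher in T_Dysf against Acute-7d, beside 3.03% and 2.54% of all genes (median log2 difference −0.41, all genes 0). *Ifngr1*, a chain of the interferon gamma receptor, fell by 1.27 (adjusted p of 0.00416 by limma), from 14966 and 14749 normalized counts to 6304 and 6002, under all 20 alternatives. *Irf1*, a transcription factor, fell by 2.22 (adjusted p of 0.031 by limma), a call lost in 9 of 20 alternatives at estimates between −2.62 and −1.82, including without either T_Dysf, Acute-7d or Acute-2d library. Its call against Acute-2d was lost in 5 of 20 (−2.47 to −2.22), including without either T_Dysf or Acute-2d library. *Jak1*, the most abundant of the list, differed by −0.25 (adjusted p of 0.118). Against Acute-2d 0 were called higher and 2 lower (3.14% and 4.21% of all genes, list median −0.54), and up to 4 lower over the alternatives. Against Effector (4.47% and 4.75%) the counts were 0 and 1 (*Usp18*, lost with the RESUB term or a fit of the 2 groups alone, −5.05 to −3.79). The list median was 0.15 there, with 8 of 14 above 0.

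**Figure D5:**
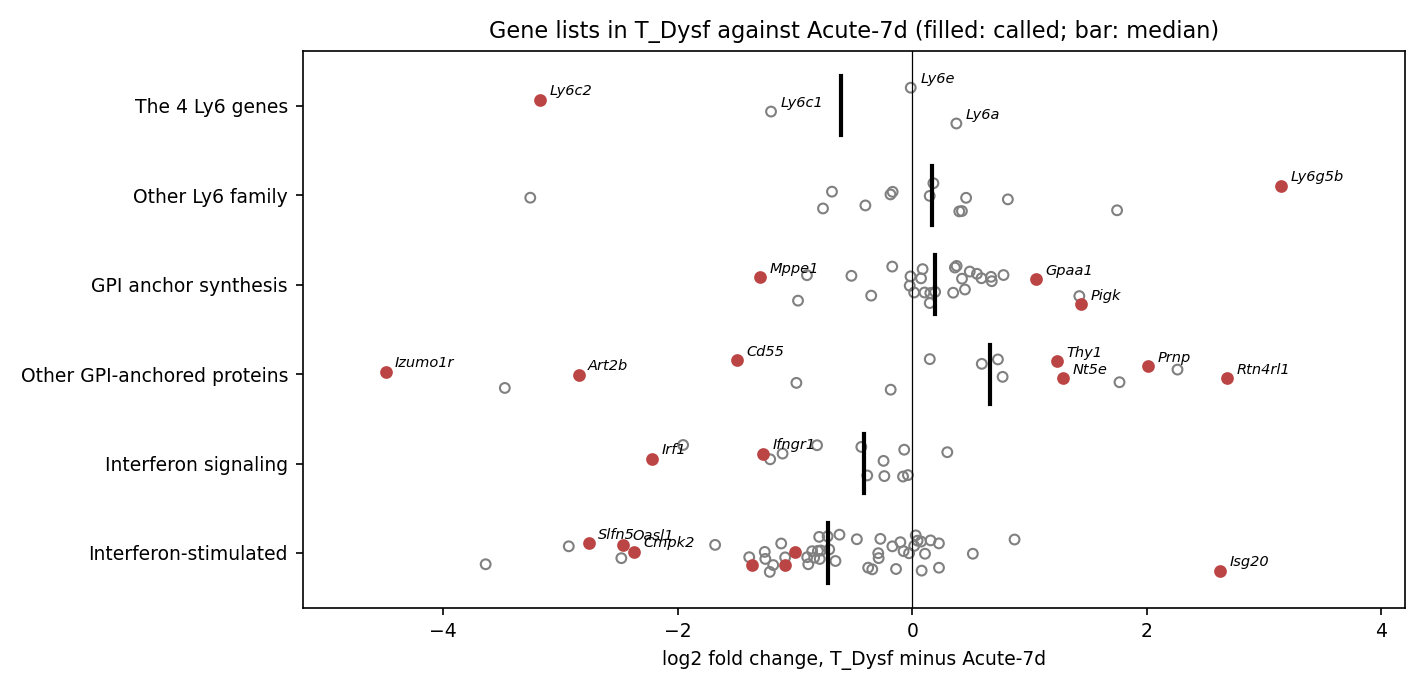
Log2 fold change of T_Dysf against Acute-7d (horizontal axis) for each gene of 6 lists, filled where called and open where not, with a bar at the list's median; vertical offsets within a list carry no value. Calls go both ways among GPI-anchored proteins, and the median of the interferon-stimulated genes is −0.72.

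Outside the comparisons with T_Dysf, *Ly6c2* was not called. In Acute-7d against Acute-2d limma called 0 genes of each of the 5 lists in either direction, and the interferon-stimulated genes had a median log2 difference of −0.16. In Effector against Acute-7d, 16 interferon-stimulated genes were called higher and 1 lower (median 0.80), beside 4.18% and 3.88% of all genes. Against Acute-2d the counts were 14 and 2 (median 0.73), beside 4.31% and 4.48%. *Ly6c2* differed by −0.29 and 0.14 in these 2 comparisons. Those higher calls of interferon-stimulated genes numbered 1 without either Acute-7d library, 3 and 2 without T_Dysf replicate 1 or 2, 6 without Effector replicate 2 and 8 without either Acute-2d library against Acute-7d. Against Acute-2d they numbered 4 without either Acute-2d library, 8 without either Acute-7d library, 5 without either T_Dysf library and 6 without Effector replicate 2. With the RESUB term, interferon-stimulated genes called higher in Effector numbered 1 against Acute-7d and 0 against Acute-2d, and in a fit of the 2 groups alone 0 in both. In that fit, calls over all genes also went from 1958 to 155 against Acute-7d and from 2135 to 235 against Acute-2d.

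Because Ly6C is also carried by other blood cells, marker genes were read beside *Ly6c2*. In bulk RNA, a sum of markers cannot tell other cells from T cells that express a marker themselves. This holds most for sums led by a single abundant gene. Calls among them stand beside 2.54% of all genes called higher and 3.03% lower in T_Dysf against Acute-7d, 3.14% and 4.21% against Acute-2d, and 4.47% and 4.75% against Effector. CD8 T cell identity genes, 8 of 8 in the table with *Cd8a* most abundant, summed to 126720 and 122429 normalized counts in T_Dysf and to between 64242 and 79630 elsewhere. Against Acute-7d, *Cd3e* and *Cd3g* were called higher and *Cd2* and *Cd5* lower. Without T_Dysf replicate 1 or either Acute-7d library, or with the RESUB term, only the call of *Cd2* held, and the estimates ran from 0.98 to 1.20 for *Cd3e*, 1.17 to 1.37 for *Cd3g* and to −1.39 at the weakest for *Cd5*. *Cd3g* and *Cd5* were also lost without T_Dysf replicate 2 or either Acute-2d library. The same 4 genes were called the same way against Acute-2d, and against Effector *Cd3e*, *Cd3g* and *Cd8a* were called higher and *Cd5* lower. Without T_Dysf replicate 1 all of these calls but that of *Cd2* were lost, and *Cd8a* was lost in 10 of 20 alternatives (0.88 to 1.69). Against Effector, the RESUB term and a fit of the 2 groups alone each ended every call of these identity genes. Estimates there ran from 1.11 to 1.36 for *Cd3e*, 1.38 to 1.86 for *Cd3g* and −2.58 to −1.95 for *Cd5*. The RESUB term also ended the call of *Cd5* against Acute-2d. Monocyte and macrophage genes, 7 of 8 in the table with *Ccr2* most abundant, summed to 6289 and 6428 in T_Dysf, 9306 and 10894 in Acute-7d, 5762 and 7155 in Acute-2d and 14727 and 5490 in Effector, with 0 called in T_Dysf against Acute-7d. *Csf1r* was called higher against Effector, a call kept in 5 of 18 alternatives (0.83 to 1.65) and lost without any 1 library. Neutrophil genes, 2 of 8 in the table with *Csf3r* most abundant, summed to between 0 and 7.81. Dendritic cell genes, 5 of 6 with *Itgax* most abundant, summed to 3730 and 3534 in T_Dysf and to between 411 and 1465 elsewhere, with 0 called against Acute-7d and *Itgax* called higher against Acute-2d and Effector, calls lost without either T_Dysf library (estimates from 3.06 to 3.46 and from 2.16 to 3.46). The first was also lost without either Acute-2d library, and the second with the RESUB term or a fit of the 2 groups alone.

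Plasma cell genes moved with T_Dysf. Of 4 in the table, 3 were called higher against each other condition, where 2.54% (Acute-7d), 3.14% (Acute-2d) and 4.47% (Effector) of all genes were, and the list summed to 3508 and 3645 normalized counts in T_Dysf and to between 1437 and 2200 elsewhere. *Igha*, an immunoglobulin heavy chain, was at 1086 and 1154 in T_Dysf and between 1.08 and 9.03 elsewhere, *Jchain* at 236 and 275 against 2.02 to 7.37, and *Sdc1* at 113 and 148 against 2.23 to 19.1. Without T_Dysf replicate 1, *Igha* and *Jchain* were not called against Acute-7d, with estimates over the alternatives from 6.18 to 8.01 and from 4.23 to 6.41 on the log2 scale. *Jchain* against Acute-2d (4.02 to 5.32) was lost without T_Dysf replicate 1 or either Acute-2d library, and *Igha* (5.88 to 7.09) and *Jchain* (4.22 to 7.00) against Effector without T_Dysf replicate 1. *Sdc1* against Effector (1.82 to 2.92) was lost without any 1 of the T_Dysf or Effector libraries, with the RESUB term and in a fit of the 2 groups alone. The RESUB term also ended the call of *Igha* against Effector, and the fit of 2 groups ended those of *Jchain* and *Sdc1* against Acute-7d. *Xbp1*, the most abundant, which T cells also express, was at 2072 and 2068 in T_Dysf and was not called. B cell genes, 5 of 5 with *Cd79b* most abundant, summed to 168 and 153 in T_Dysf and between 55.8 and 178 elsewhere, with 1 called higher against Acute-7d (*Cd79b*), a call lost in 9 of 20 alternatives, leaving out any library but those of Effector among them (1.61 to 2.03). The cells had been sorted as viable CD8+ T cells, and whether these transcripts came from them or from other cells was not tested. The part of these genes in the *Ly6c2* result was not tested.

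The remaining marker lists did not separate T_Dysf from all other libraries in 1 direction, except for endothelial genes. CD4 T cell genes, 4 of 4 with *Zbtb7b* most abundant, summed to between 1058 and 1639 over the 8 libraries, and *Cd4* itself was between 1.01 and 13.0, with 0 called in T_Dysf against Acute-7d. *Cd40lg* was called lower in T_Dysf against Effector, at 0 in both T_Dysf libraries, 11.9 and 13.0 in Effector and between 1.05 and 4.04 elsewhere, a call kept in 16 of 18 alternatives and lost with the RESUB term and without T_Dysf replicate 1. NK cell genes, 4 of 4 with *Eomes* most abundant, which CD8 T cells also express, summed to 1302 and 1918 in T_Dysf and 4617 and 3664 in Acute-7d, with 1 called lower (*Ncr1*), a call lost in 9 of 19 alternatives at estimates between −5.07 and −2.48, among them leaving out Effector replicate 1, Acute-7d replicate 2 or either library of Acute-2d or T_Dysf. *Klre1* was called higher against Acute-2d, a call lost without either Acute-2d library, without T_Dysf replicate 1 and in a fit of the 2 groups alone (2.93 to 3.83). In the remaining conditions NK cell genes summed to 2598 and 1865 (Effector) and to 1792 and 1558 (Acute-2d). Endothelial and stromal genes, 8 of 8 with *Pecam1* most abundant, summed to 1141 and 1196 in T_Dysf and between 1386 and 2090 elsewhere, with 0 called. Erythroid genes, 5 of 6 with *Hba-a2* most abundant, summed to between 46.8 and 101 with 0 called. Their part in the *Ly6c2* result was not tested either.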

How the data were processed

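PolyA RNA of 8 libraries, 2 for each of 4 conditions, was sequenced on an Illumina NovaSeq. The authors aligned the reads to mm10 with STAR, quantified genes in Partek Flow and deposited a normalized signal, read counts divided by the DESeq2 median-ratio size factor of each library. Tool versions are absent from the labels. Many values are not whole in the inferred reads. Among nonzero values under 1000 reads, T_Dysf replicate 1 stood apart with 51.0% whole within 0.01 of a read, against 72.2% to 74.9% in the other libraries.

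All 24303 genes were fitted in one model of 4 condition means with limma 3.58.1 in R 4.3.3 (lmFit, eBayes with trend) on log2(value + 1), with 4 residual degrees of freedom and two-sided moderated tests. Tables, sequences and figures used Python 3.11.15 with numpy 2.4.6, pandas 2.3.3, matplotlib 3.10.9 and biopython 1.88. Gene positions and transcripts came from GENCODE vM21, promoters from RefSeq.

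The 4 genes, the gene lists and the marker lists were chosen with earlier results of these data known. Named genes were the 4 members, for each the 5 genes with the highest Pearson r over the 8 libraries among the 10310 genes with a mean of at least 50 that were left without the other members and without symbols of predicted genes (Gm with a number, Rik) and pseudogenes (-ps), and from each list up to 5 called genes with the largest change plus the one with the highest mean.

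Alternatives were pseudocounts of 0.1 and 10, a filter at 50 on each gene's mean or on its maximum, and 3 other scalings (75th percentiles made equal, totals made equal, quantiles). Models were also fitted to only the 2 conditions compared, with a replicate block and with a term for the RESUB prefix. The fold change minimum was dropped, and each library was left out in turn. A fit without pseudogene entries was added after seeing the data, and it still held *Ly6a2*. Where a library was left out, the lone library of its condition is assumed to vary like the others.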

Additional observations from a re-analysis of the deposited data

How the results depend on the processing

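Over 36 results, 720 values were recomputed under the alternatives, 697 kept their direction and their side of the threshold, and 23 changed direction without being past the threshold. The count of members called was 1 in each comparison with T_Dysf and 0 in the other 3 under all 20 alternatives. *Ly6c2* in T_Dysf ranged from −3.28 to −3.09 against Acute-7d, −2.86 to −2.58 against Acute-2d and −2.97 to −2.77 against Effector (log2). *Ly6c1* has no value under the filter on a mean of at least 50. With the replicate block, which treats equal replicate numbers as paired, the count of members called was 1 in the comparisons with T_Dysf, with an adjusted p of 0.00736 by limma for *Ly6c2* against Acute-7d (2.91e-05 to 0.0161 over the alternatives). Replicate numbers were not taken as pairs: over 6 pairs of conditions the correlation of replicate differences across genes ran from −0.199 to 0.197, with 2 over 0.1.

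The values that changed direction were as follows, and the cause was not tested. Scaling to equal 75th percentiles gave −0.032 for *Ly6e* in T_Dysf against Acute-2d, −0.13 for *Ly6c1* and −0.058 for *Ly6e* in Effector against Acute-7d, and −0.0030 for *Ly6c2* and −0.0030 for the sum of *Ly6c1* and *Ly6c2* in Effector against Acute-2d. That scaling moved the median of all genes with a mean of at least 50 by −0.103 and −0.117 in T_Dysf against Acute-7d and Acute-2d, and by −0.132 and −0.146 in Effector against them. For *Ly6c1* in Effector against Acute-7d, a pseudocount of 10 gave −0.0034 and equal totals −0.00020. Quantile normalization gave 0.15 for *Ly6e* in T_Dysf against Acute-7d, and the RESUB term 0.044 for *Ly6a* in T_Dysf against Effector. Leaving out 1 library gave, for *Ly6e*, −0.11 to 0.084 in T_Dysf against Acute-7d, −0.012 to 0.18 against Acute-2d, −0.24 to 0.059 against Effector and −0.073 to 0.22 in Effector against Acute-7d. For *Ly6a* it gave −0.39 to 0.33 in T_Dysf against Effector and −0.17 to 0.56 in Effector against Acute-2d. For *Ly6c1* it gave −0.16 to 0.45 in Acute-7d against Acute-2d, −0.31 to 0.31 in Effector against Acute-7d and −0.018 to 0.31 in Effector against Acute-2d.

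Of all genes called, the share called higher moved most under equal 75th percentiles, to 40.7% from 51.9% in Effector against Acute-7d and to 35.8% from 49% in Effector against Acute-2d, and under quantile normalization, to 66.7% from 46.3% in Acute-7d against Acute-2d. As an average over genes whose mean reached 50, the squared difference between replicates was between 26.7 and 63.5 times what read sampling alone gives.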
